A study of Caenorhabditis elegans with 8 samples.

Results

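The intracellular lipid-binding proteins of Caenorhabditis elegans are encoded by 9 genes, lbp-1 to lbp-9, and their RNA levels were compared between worms labelled adult day 5 and worms labelled adult day 1. The members were chosen by gene symbol: each of the 9 WormBase symbols was matched to a gene ID, and all 9 IDs were among the 17076 genes of the deposited table. Every member passed the filter on low values, a mean of at least 1 normalised read over the 8 libraries, so none was left out of the test. Hermaphrodites of the wild-type strain N2 were grown at 20 °C on NGM plates with OP50 bacteria from synchronised first-stage larvae, for 180 h to adult day 5 and for 60 h to adult day 1. Whole worms were extracted, poly(A) RNA was sequenced without a stated strand marking, and each age had 4 libraries, 1 per labelled batch. The labels are uneven, since the design text gives the control the code of the older group and the culture times lie further apart than the labelled ages; groups were taken from the treatment label. Separate cultures are not stated for the libraries of an age, and the p-values therefore cover only the spread among these 8 libraries, part or all of which may be technical.

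Intracellular lipid-binding proteins, also called fatty acid binding proteins, are small proteins of the cytosol that fold into a barrel of beta strands and hold a fatty acid or a related lipid inside it. They keep poorly soluble lipids in solution and carry them between membranes, organelles and the nucleus. In C. elegans, LBP-8 carries a lipid signal released by the lysosomal lipase LIPL-4 to the nucleus, where the nuclear receptors NHR-49 and NHR-80 act on it, and LBP-3 is secreted from the intestine and takes such a signal to neurons. LBP-1, LBP-2 and LBP-3 carry a predicted secretion signal and are relatives of a lipid-binding protein in the fluid around the embryo of the roundworm Ascaris.

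Levels are given as normalised reads, which are read counts scaled by a size factor of each library, and means are given with the SD over 4 libraries. A normalised read is worth close to 1 read in every library, and the values do not correct for gene length, so levels of different genes are compared per kilobase of exon. The libraries held 20569012 to 22305681 assigned reads at day 5 and 19345868 to 20763236 at day 1. The difference of a gene is its mean log2(value + 1) at day 5 minus that at day 1, with its standard error (SE), and it understates the change of genes with few reads. Differences were tested with limma over all 16739 genes that passed the filter, and a gene with a Benjamini-Hochberg adjusted p under 0.05 was called.

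Tissue marker lists moved widely between the ages. Their counts are read against 28.8% of all tested genes called higher and 26.8% called lower. Of the yolk genes 6 of 6 were called higher at day 5 (summed level 589523 to 1297256 at day 5 and 111.5 to 4415 at day 1), and of the germline and oocyte markers 10 of 12 were called higher and none lower. Of 10 body wall muscle markers 10 were called lower, of 10 intestine markers 7 were lower and none higher, of 10 hypodermis markers 8 were lower and 1 higher, of 10 neuron markers 7 were lower and 2 higher, of 6 pharynx markers 5 were lower, of 2 coelomocyte markers 2 were lower, and of 8 moult genes 8 were lower. Of 7 sperm markers limma called 0, with 1 at an unadjusted p under 0.05, while edgeR and DESeq2 each called 2 lower. No marker was at 0 in all libraries of an age. The day 1 libraries of batches 1 to 4 differed among themselves, with summed sperm levels of 2859, 1694, 138 and 182 and summed hypodermis levels of 88213, 89976, 184045 and 173525. The moult genes summed to 63951, 56367, 16423 and 38902 in the same order, so that batch 4 lay between batch 3 and the others. Genes of the same tissue list differed too. In the body wall muscle list the longest gene, unc-89 (25942 exonic bases), had 6031, 9386, 2447 and 3520 in day 1 batches 1 to 4. The shortest, unc-27 (933 exonic bases), had 16840, 17255, 24362 and 26047. The lbp genes have 481 to 759 exonic bases, and a part of gene length or RNA quality in their differences was not tested. Each difference of a member is also given without day 1 batches 1 and 2 and without day 1 batches 3 and 4. This split was drawn from the differences seen among these day 1 libraries. For every lbp gene day 1 batches 3 and 4 were above batches 1 and 2, so the direction of each shift is fixed by the split. Adjusted p-values and calls under this split are therefore descriptive and do not count as tests.

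The 9 genes did not move together between the ages. lbp-1, lbp-2 and lbp-9 rose at day 5, lbp-5, lbp-6, lbp-7 and lbp-8 fell, and lbp-3 and lbp-4 were not called. With 3 of 9 members called higher and 4 of 9 called lower, the counts are read against 28.8% of all tested genes called higher and 26.8% called lower, and 55.6% called in either direction. The 4 libraries of day 5 lay wholly above those of day 1 for 2 members (27.6% of all tested genes) and wholly below for 4 members (25.2%), so 6 of 9 members had no overlap in either direction, against 52.8% of all tested genes. The median difference over the 9 members was -0.52, against -0.06 over all tested genes. Since whole worms were sequenced, fewer cells of a type, less RNA per cell and a larger share of RNA from other tissues cannot be told apart.

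**Figure D1:**
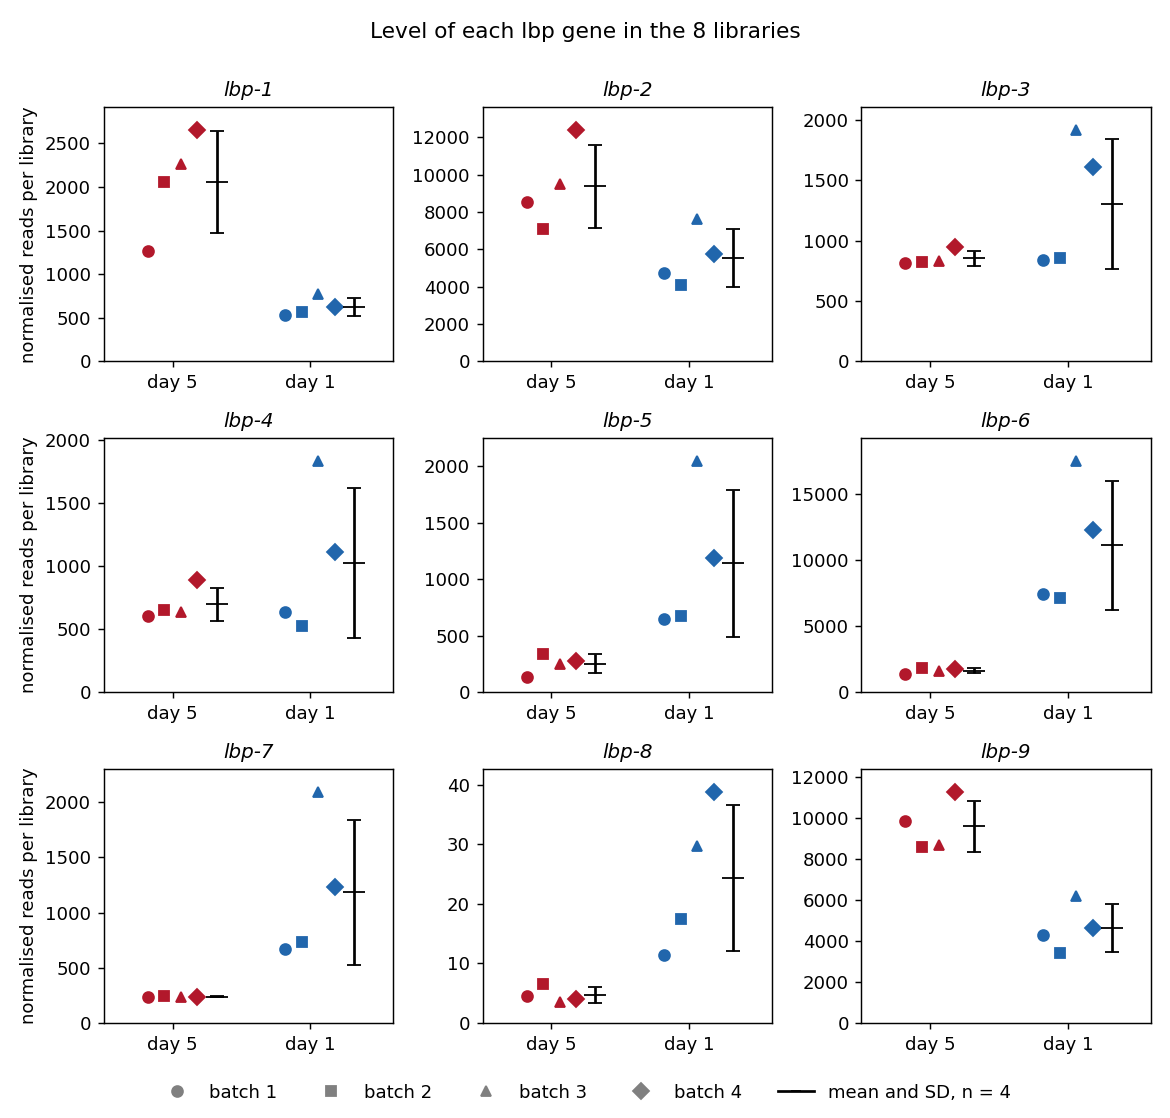
Normalised reads (linear axis from 0) of the 9 lbp genes in the 4 day 5 libraries (red, left) and the 4 day 1 libraries (blue, right), with mean and SD beside each group and symbols for the labelled batches. The day 1 libraries of batches 3 and 4 are above those of batches 1 and 2 for every lbp gene, while the day 5 libraries of lbp-7 lie within 231 to 240.3 normalised reads.

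The 3 relatives with a predicted secretion signal, lbp-1, lbp-2 and lbp-3, lie next to one another on chromosome X and differed in what they did. lbp-1 (WBGene00002253) had 1267, 2059, 2260.4 and 2649 normalised reads in the day 5 libraries of batches 1 to 4, against 535, 571, 774 and 625 in the day 1 libraries. Each day 5 library was above each day 1 library, and the lowest of day 5 was that of batch 1. The means were 2059 ± 582 at day 5 and 626 ± 105 at day 1, a ratio of 3.29, and the log2 difference was 1.68 (SE 0.25, 95% interval 1.13 to 2.23, limma adjusted p = 0.000311). It became 1.51 with day 1 batches 1 and 2 left out and 1.84 with day 1 batches 3 and 4 left out. Of all tested genes 15.7% had a larger difference.

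lbp-2 (WBGene00002254) had 8544, 7093, 9510.0 and 12379.6 normalised reads at day 5, against 4745, 4094, 7621 and 5731 at day 1. The groups overlapped, because the day 1 library of batch 3 was above the day 5 library of batch 2. Within each labelled batch the day 5 library was the higher. Batches pair the libraries by label only: deviations of same-batch libraries correlated across genes at a mean of -0.0253, against 0.00876 for other pairs. The means were 9382 ± 2232 at day 5 and 5548 ± 1537 at day 1, and the log2 difference was 0.77 (SE 0.24, limma adjusted p = 0.0218). The direction held with each library left out in turn, but the call did not: the difference became 0.75 without day 5 batch 3 (limma adjusted p = 0.0534), 0.62 without day 5 batch 4 (0.0642), 0.71 without day 1 batch 1 (0.0501) and 0.64 without day 1 batch 2 (0.0592). The difference became 0.48 with day 1 batches 1 and 2 left out (limma adjusted p = 0.129) and 1.06 with day 1 batches 3 and 4 left out (0.00377), and over all alternatives tried the adjusted p ran over 0.00127 to 0.402.

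lbp-3 (WBGene00002255), which encodes the secreted carrier from intestine to neurons, had 814, 821, 828 and 950.1 normalised reads at day 5, against 843, 859, 1915 and 1609 at day 1. The day 5 libraries were close to one another, and of the day 1 libraries batches 1 and 2 lay among them while batches 3 and 4 lay above. The means were 853 ± 64.9 at day 5 and 1306 ± 541 at day 1, with a log2 difference of -0.52 (SE 0.28, 95% interval -1.15 to 0.11, limma adjusted p = 0.144). The answer depends on which day 1 libraries are used. The difference became -1.04 with batches 1 and 2 left out (limma adjusted p = 0.00157) and 0.00104 with batches 3 and 4 left out (0.996). The split was drawn from these same libraries, so both p-values are descriptive.

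LBP-8, the carrier of the lysosomal lipid signal, is encoded by the least abundant of the 9 genes. lbp-8 (WBGene00002260) had 4.50, 6.52, 3.54 and 3.98 normalised reads at day 5, against 11.4, 17.5, 29.7 and 38.8 at day 1, which rest on 4 to 7 reads per library at day 5 and 12 to 40 at day 1. Every day 5 library was below every day 1 library. The means were 4.64 ± 1.31 at day 5 and 24.4 ± 12.2 at day 1, so that day 1 was 5.25 times day 5. lbp-8 fell by 2.06 on the log2 scale (SE 0.48, 95% interval -3.13 to -0.98, limma adjusted p = 0.00477). On the recovered reads edgeR gave a difference of -2.36 (adjusted p = 0.00369), where the pseudocount weighs less. The difference became -2.66 with day 1 batches 1 and 2 left out and -1.46 with day 1 batches 3 and 4 left out (limma adjusted p = 0.0464).

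lbp-5 (WBGene00002257), whose product has been linked to fat storage and to NHR-49, had 137, 341, 249.8 and 275 normalised reads at day 5, against 652, 674, 2046 and 1191 at day 1. The groups did not overlap, and the highest day 5 library was that of batch 2. The means were 251 ± 84.8 at day 5 and 1141 ± 653 at day 1, with a log2 difference of -2.09 (SE 0.41, 95% interval -3.004 to -1.18, limma adjusted p = 0.00172). The difference became -2.71 with day 1 batches 1 and 2 left out and -1.47 with day 1 batches 3 and 4 left out.

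Among the remaining members lbp-6 had the largest difference of the family. lbp-6 (WBGene00002258) had 1354, 1806, 1572 and 1764 normalised reads at day 5, against 7445, 7141, 17448 and 12286 at day 1. No day 5 library came near the lowest day 1 library. The means were 1624 ± 207 at day 5 and 11079.9 ± 4856 at day 1, so that day 1 was 6.82 times day 5, and lbp-6 fell by 2.68 on the log2 scale (SE 0.29, 95% interval -3.32 to -2.04, limma adjusted p = 5.09e-05). Of all tested genes 5.97% had a more negative difference. The difference became -3.18 with day 1 batches 1 and 2 left out and -2.17 with day 1 batches 3 and 4 left out. The gene shares 35 exonic bases with mec-6 on the other strand, and reads of both strands cannot be told apart there.

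lbp-7 (WBGene00002259) had nearly the same level in all day 5 libraries, with 231, 240.3, 237 and 236 normalised reads, against 673, 729.5, 2091.5 and 1233 at day 1. The highest library was 1.04 times the lowest at day 5 and 3.11 times the lowest at day 1, and the groups did not overlap. The means were 236 ± 4.04 at day 5 and 1182 ± 657 at day 1, with a log2 difference of -2.16 (SE 0.34, 95% interval -2.92 to -1.41, limma adjusted p = 0.00045). The difference became -2.76 with day 1 batches 1 and 2 left out and -1.57 with day 1 batches 3 and 4 left out.

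lbp-9 (WBGene00021486) had 9855, 8575, 8681 and 11279 normalised reads at day 5, against 4288, 3402, 6201 and 4652 at day 1. All day 5 libraries were above all day 1 libraries, with the narrowest gap within batch 3. The means were 9598 ± 1262 at day 5 and 4636 ± 1168 at day 1, a ratio of 2.07, with a log2 difference of 1.07 (SE 0.21, 95% interval 0.61 to 1.54, limma adjusted p = 0.00167). The difference became 0.83 with day 1 batches 1 and 2 left out and 1.32 with day 1 batches 3 and 4 left out. lbp-9 shares 5 exonic bases with Y40B10A.9.

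lbp-4 (WBGene00002256) had 604, 653, 639 and 893 normalised reads at day 5, against 638, 524, 1835 and 1109.8 at day 1. The groups overlapped, with the day 1 libraries of batches 3 and 4 above all day 5 libraries, that of batch 1 among them and that of batch 2 below them. The means were 697 ± 132 at day 5 and 1027 ± 596 at day 1, with a log2 difference of -0.40 (SE 0.37, 95% interval -1.22 to 0.42, limma adjusted p = 0.387). It became -1.05 with day 1 batches 1 and 2 left out (limma adjusted p = 0.00725) and 0.25 with day 1 batches 3 and 4 left out (0.34).

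**Figure D2:**
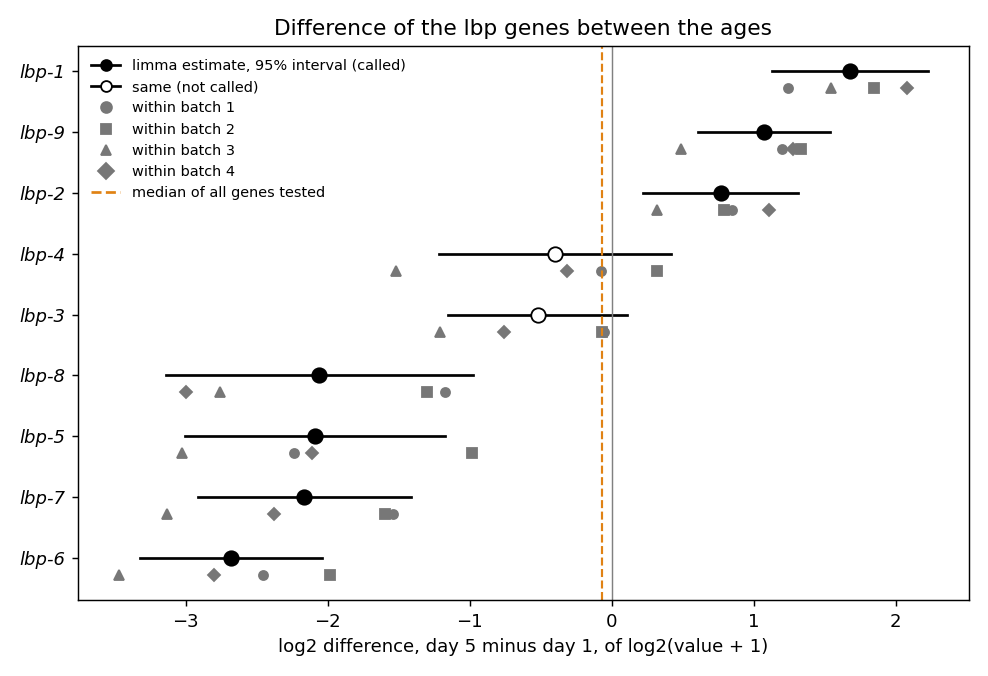
Differences of the 9 lbp genes on the log2(value + 1) scale, day 5 minus day 1, with 95% intervals from limma and the difference within each labelled batch. lbp-6 is lowest at -2.68 and lbp-1 highest at 1.68, and the intervals of lbp-3 and lbp-4 include 0.

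The differences within batches, which pair libraries by label only, showed where the libraries disagreed in size. For the 4 genes that fell, the difference of batch 3 was the most negative for lbp-5 (-3.03), lbp-6 (-3.47) and lbp-7 (-3.13), and that of batch 4 for lbp-8 (-2.996). The corresponding smallest falls were those of batch 2 for lbp-5 (-0.98) and lbp-6 (-1.98), and of batch 1 for lbp-7 (-1.54) and lbp-8 (-1.18). For the genes that rose, batch 3 had the smallest rise of lbp-2 (0.32) and lbp-9 (0.49). lbp-4 was the member whose batches differed in direction, from -1.52 in batch 3 to 0.32 in batch 2. At day 1 the library of batch 3 was the highest for 8 of 9 members, and that of batch 4 for lbp-8. At day 5 the highest library was that of batch 4 for 5 members and that of batch 2 for 4 members.

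Per kilobase of exon, the order of the 9 genes was not the same at the 2 ages. At day 5 lbp-9 was highest with 17017 ± 2238 normalised reads per kilobase, followed by lbp-2 with 12361 ± 2941, lbp-1 with 3709.6 ± 1049 and lbp-6 with 3082 ± 393. At day 1 lbp-6 led with 21024 ± 9214 per kilobase, followed by lbp-9 with 8219 ± 2071 and lbp-2 with 7309 ± 2025, while lbp-1 was eighth with 1128 ± 190. lbp-8 was last at both ages, with 8.78 ± 2.49 per kilobase at day 5 and 46.1 ± 23.2 at day 1. The neighbours lbp-9 and lbp-2, lbp-1 and lbp-6, lbp-3 and lbp-4, and lbp-5 and lbp-7 overlapped at day 5, and the steps between these pairs did not. At day 1 lbp-5, lbp-7, lbp-3, lbp-4 and lbp-1 overlapped each with the next in this order, as did lbp-9 with lbp-2, whereas lbp-6 stood above the rest and lbp-8 below. Among all listed genes with an exon length, the level of lbp-6 per kilobase was above 95.1% of genes at day 5 and 99.1% at day 1. That of lbp-1 was above 96.1% at day 5 and 88.3% at day 1. The order depends in part on the length used. Per kilobase of coding sequence the order at day 5 was the same. At day 1 lbp-2 (11486) then came before lbp-9 (10166), and lbp-7 (2875) before lbp-5 (2796). The shares of the family below were computed with exon length only.

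The makeup of the family was computed by setting the per kilobase level of each member against the sum of the 9 in the same library. lbp-9 made up 43.0 ± 3.33% of the family at day 5 and 18.5 ± 2.99% at day 1, and lbp-2 made up 30.9 ± 3.17% at day 5 and 16.3 ± 1.86% at day 1. lbp-6 made up 7.85 ± 1.30% at day 5, within 6.90 to 9.71%, and 44.8 ± 2.79% at day 1, within 41.5 to 47.3%. Its share varied less between day 1 libraries than its level, which ran from 7141 to 17448 normalised reads. lbp-6 is a large part of the sum its share is taken from, which damps the share. lbp-1 made up 9.30 ± 2.08% at day 5 and 2.599 ± 0.587% at day 1. lbp-5 made up 1.33 ± 0.513% at day 5 and 4.89 ± 0.891% at day 1, and lbp-7 had 1.17 ± 0.16% at day 5 and 4.73 ± 0.807% at day 1. The shares of lbp-3 (3.47 ± 0.247% at day 5 and 4.49 ± 0.513% at day 1) and lbp-4 (2.95 ± 0.185% at day 5 and 3.55 ± 0.697% at day 1) were closer. All 9 genes together took 0.0977 to 0.137% of the assigned reads at day 5 and 0.0955 to 0.188% at day 1, ranges that overlap. Shares within a sum are tied to one another, so a fall of lbp-6 raises the others, and they were not tested.

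**Figure D3:**
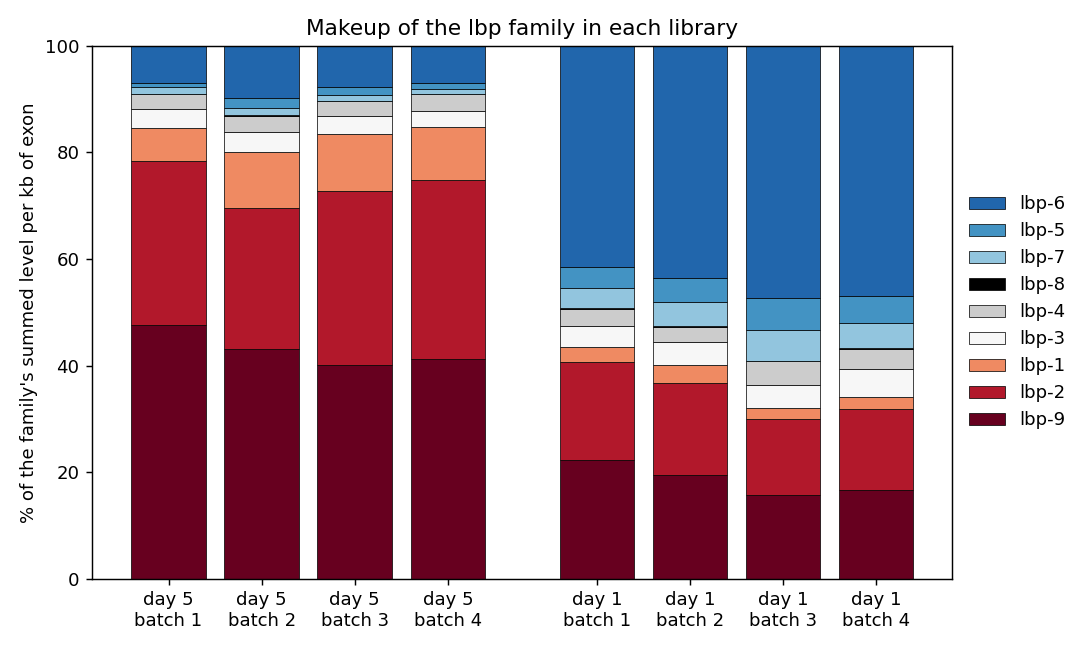
Share of each lbp gene in the summed per kilobase level of the 9 genes (percent of the family), one bar per library, day 5 on the left and day 1 on the right. lbp-9 and lbp-2 fill most of each day 5 bar, while lbp-6 takes 41.5 to 47.3% of each day 1 bar and 6.90 to 9.71% of each day 5 bar.

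Of the 9 genes 7 lie in 3 clusters of neighbours, and the members of a cluster did not always move alike. On chromosome X, lbp-3 (3257372 to 3258155), lbp-1 (3259142 to 3259812) and lbp-2 (3260610 to 3261470), in build WBcel235, lie on the plus strand within 4099 bases, with gaps of 986 and 797 bases and no other listed gene between them. The per kilobase ratio of lbp-1 to its neighbour lbp-3 was 1.75, 2.82, 3.07 and 3.13 in the day 5 libraries, against 0.714, 0.747, 0.454 and 0.437 in the day 1 libraries. lbp-1 was thus the more abundant of the pair in each day 5 library and the less abundant in each day 1 library. The ratio of lbp-2 to lbp-3 was 8.97 ± 1.51 at day 5 and 3.69 ± 0.751 at day 1, and that of lbp-2 to lbp-1 was 3.49 ± 1.03 at day 5 and 6.41 ± 0.833 at day 1, both without overlap between the ages. These ratios between neighbours were chosen after the values had been seen and were not tested.

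On chromosome I, lbp-6 (6728296 to 6729376) and lbp-5 (6731267 to 6732276) lie on the minus strand, 1890 bases apart, and both fell. The ratio of lbp-6 to lbp-5 was 6.36 ± 1.82 at day 5 and 9.32 ± 1.11 at day 1, with overlap. Between them lies ant-1.2, which had 5.32 ± 2.17 normalised reads at day 5 and 6.39 ± 6.91 at day 1 (limma adjusted p = 0.667). On chromosome V, lbp-7 (13879552 to 13880213) and lbp-8 (13890773 to 13891364) lie on the plus strand, 10559 bases apart, and both fell. Their ratio was 54.7 ± 13.2 at day 5 and 51.8 ± 17.6 at day 1, with overlap. Of the 3 listed genes between them, spp-12 went against its neighbours, with 39.9 ± 10.3 normalised reads at day 5 and 4.35 ± 5.09 at day 1 (log2 difference 3.69, limma adjusted p = 0.00403). T22G5.3 (log2 difference 0.50, limma adjusted p = 0.171) and srsx-19 (0.11, adjusted p = 0.908) were not called. The other members, lbp-4 (7820578 to 7821477) and lbp-9 (2068449 to 2069142), lie alone on chromosome V, on the plus strand.

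**Figure D4:**
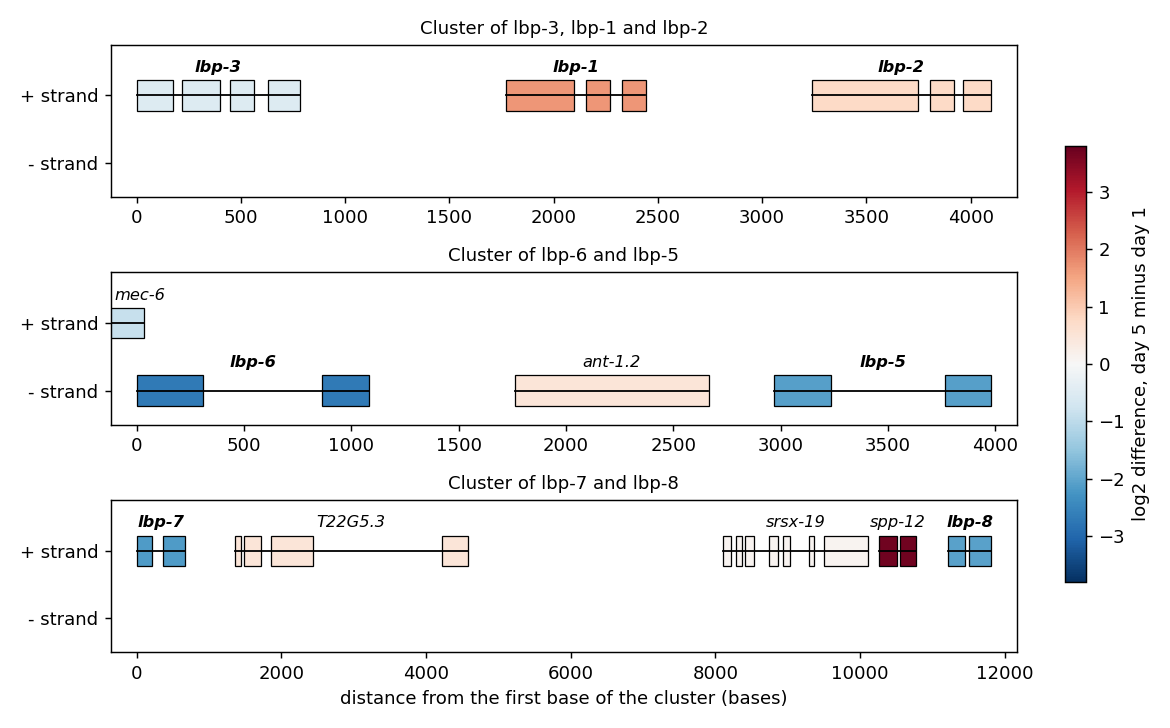
Exons of the lbp genes in the 3 clusters and of the listed genes beside them, by strand and by distance in bases from the first base of each cluster, coloured by the log2 difference of day 5 minus day 1. Both genes are blue (lower at day 5) in the clusters of lbp-6 with lbp-5 and of lbp-7 with lbp-8, while the cluster of lbp-3, lbp-1 and lbp-2 holds differences of -0.52, 1.68 and 0.77.

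The gene models also differed between the members that rose and those that fell, a feature looked at after the values had been seen. The 4 genes that fell, lbp-5, lbp-6, lbp-7 and lbp-8, each have 2 exons and 135 to 137 codons. The 3 genes that rose, lbp-1, lbp-2 and lbp-9, each have 3 exons and 152 to 161 codons. lbp-4, with 3 exons and 145 codons, and lbp-3, with 4 exons and 165 codons, were not called. The 9 members are related to one another to different degrees, so they do not count as independent cases, and the relation was not tested.

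For each member the genes with the most similar profile were taken as those with the smallest root mean square distance of centred log2(value + 1) over the 8 libraries, among 14525 genes with a mean of at least 10. The nearest to lbp-6 were gst-27 (0.0737) and test-1 (0.12), and the nearest to lbp-5 were pat-10 (0.141), a troponin C of body wall muscle, and nlt-1 (0.187), which is named as a non-specific lipid transfer protein. The nearest to lbp-7 were Y66A7A.7 (0.0866) and the innexin gene inx-17 (0.146), and the nearest to lbp-8 were nhr-143 (0.193) and ZK622.4 (0.195). For the genes that rose, sup-36 (0.171) and C33A12.19 (0.212) were nearest to lbp-1, C25G4.2 (0.102) and elb-1 (0.114) to lbp-2, and R12C12.6 (0.0633) and exos-2 (0.0757) to lbp-9. For lbp-3 they were mrps-18C (0.0842) and aps-2 (0.0923), and for lbp-4 ZK1236.5 (0.0988) and Y4C6B.7 (0.111). Within the family lbp-3 and lbp-4 were nearest to each other (0.201), as were lbp-2 and lbp-9 (0.208) and lbp-6 and lbp-7 (0.296). Many genes outside the family were nearer. By distance lbp-4 ranked 190 for lbp-3 and lbp-3 ranked 59 for lbp-4. lbp-9 ranked 105 for lbp-2 and lbp-2 ranked 307 for lbp-9. lbp-7 ranked 61 for lbp-6 and lbp-6 ranked 94 for lbp-7. Of the 18 nearest genes 14 were also chosen with a pseudocount of 5, and both neighbours of lbp-8 changed, which has few reads.

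The partners of LBP-3 and LBP-8 in lipid signalling moved in both directions, with 3 of 9 called higher and 3 lower. Of all tested genes 28.8% were called higher and 26.8% lower. The lipase gene lipl-4 had 18.2 ± 5.29 normalised reads at day 5 and 29.5 ± 13.7 at day 1 and was not called (log2 difference -0.59, SE 0.45, limma adjusted p = 0.294); it shares 202 exonic bases with other genes. Of the receptors that act downstream of LBP-8, nhr-49 rose, with 2462 ± 421 at day 5 and 1150.4 ± 459 at day 1 (log2 difference 1.19, limma adjusted p = 0.0108), a call lost after quantile scaling (0.61, adjusted p = 0.13). Without batch 4 of both ages the difference of nhr-49 was again 1.19 (limma adjusted p = 0.0601), and tested against a 1.5-fold change it had an adjusted p of 0.108. nhr-80 fell, with 194 ± 29.7 at day 5 and 422 ± 29.7 at day 1 (log2 difference -1.12, adjusted p = 0.000982). So at day 5 lbp-8 and nhr-80 were lower and nhr-49 was higher. nhr-66, which encodes a partner receptor of NHR-49, had 2398 ± 356 at day 5 and 788 ± 80.2 at day 1 (log2 difference 1.597, limma adjusted p = 5.21e-05). mdt-15, the coactivator subunit of the Mediator complex, was not called (log2 difference 0.56, limma adjusted p = 0.302), and its difference became 1.37 with day 1 batches 1 and 2 left out (adjusted p = 0.00191) and -0.25 with day 1 batches 3 and 4 left out. On the neuronal side of the LBP-3 signal, the neuropeptide gene nlp-11 had 207 ± 17.7 at day 5 and 346 ± 118 at day 1 and was not called (log2 difference -0.68, limma adjusted p = 0.0588), although edgeR (adjusted p = 0.0342) and DESeq2 (0.0268) on the recovered reads called it lower. aex-5, a neuropeptide-processing protease gene, fell to 258 ± 43.2 at day 5, against 702 ± 112 at day 1 (log2 difference -1.44, limma adjusted p = 0.000309).

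Other lipid genes were described by lists drawn up from general knowledge, with earlier results of these data known. Counts of calls in these lists are read against 28.8% of all tested genes called higher and 26.8% called lower. Apart from the fat genes and acs-2, the genes named were the called genes with the largest non-overlapping differences of their list. Of 10 delta-9 desaturase and fatty acid oxidation genes 1 was called higher and 3 lower, with a median of -0.66. The desaturase gene fat-5 rose, with 872 ± 390.0 normalised reads at day 5 and 216 ± 83.0 at day 1 (log2 difference 2.03, limma adjusted p = 0.00166), and its relative fat-7 fell, with 378 ± 123 at day 5 and 799 ± 198 at day 1 (log2 difference -1.101, adjusted p = 0.00691). fat-6 (log2 difference -0.17, limma adjusted p = 0.656) and the acyl-CoA synthetase gene acs-2 (-1.63, SE 1.00, adjusted p = 0.197) were not called; without batch 3 of both ages acs-2 had a difference of -2.93 and was called (adjusted p = 0.0234). cpt-5, a carnitine palmitoyltransferase gene that flanks lbp-7, fell to 218 ± 96.5 at day 5, against 833 ± 469 at day 1 (log2 difference -1.88, limma adjusted p = 0.00221).

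Families of other lipid-binding proteins also held genes called in each direction, against 28.8% of all tested genes called higher and 26.8% called lower. Of the 8 genes of the FAR family, the fatty acid and retinol binding proteins of nematodes, 3 were called higher and 3 lower, with a median of -0.19. far-4 had 66.05 ± 68.8 normalised reads at day 5 and 2.997 ± 0.205 at day 1 (log2 difference 3.59, limma adjusted p = 0.000816). Each day 1 library held 3 reads of far-4, so that SD reflects only the scaling. At day 5 batch 3 had 168.3 normalised reads of far-4 and the others 19.6 to 40.5. far-5 had 125 ± 32.5 at day 5 and 443 ± 113 at day 1 (log2 difference -1.82, limma adjusted p = 0.000401). Of 7 acyl-CoA-binding protein genes listed, 1 was called higher and 2 lower, with a median of -0.47. acbp-3 fell to 332 ± 71.5 at day 5, against 1953 ± 1048 at day 1 (log2 difference -2.43, limma adjusted p = 0.000273), while acbp-5 rose, with 1435 ± 221 at day 5 and 469 ± 12.5 at day 1 (log2 difference 1.6, adjusted p = 4.8e-05).

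Of 12 fatty acid synthesis and lipid droplet genes 5 were called higher and 2 lower, with a median of 0.53. The perilipin gene plin-1 had 9292 ± 2452 normalised reads at day 5 and 2208 ± 974 at day 1 (log2 difference 2.15, limma adjusted p = 0.000409). lid-1, which encodes a droplet protein that works with the triglyceride lipase, had 2243 ± 267 at day 5 and 472 ± 178 at day 1 (log2 difference 2.31, limma adjusted p = 6.45e-05). Of 7 other lipid carriers and receptors 1 was called higher and 3 lower, with a median of -0.19. rme-2, the yolk receptor of oocytes, was the gene that rose, with 23190.1 ± 3906 at day 5 and 367 ± 178 at day 1 (log2 difference 6.09, limma adjusted p = 1.19e-06), and nlt-1 fell to 598 ± 169 at day 5, against 3110.5 ± 1505 at day 1 (log2 difference -2.31, limma adjusted p = 0.000356).

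**Figure D5:**
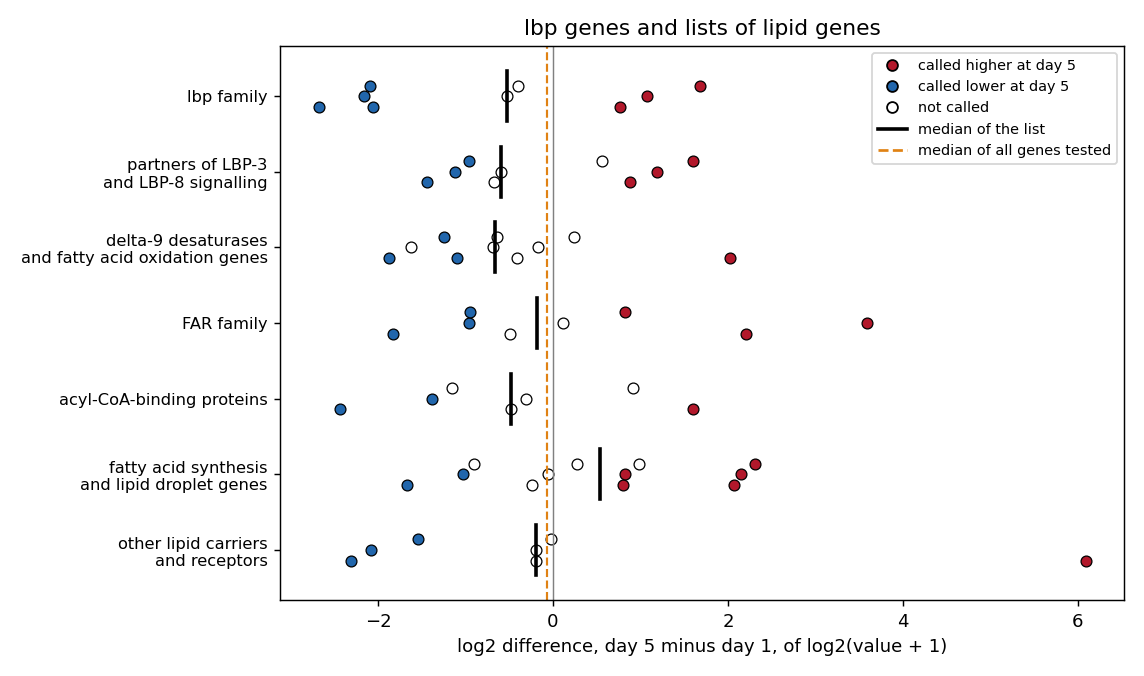
Log2 difference of day 5 minus day 1 for each gene of the lbp family and of 6 lists of lipid genes, with filled points for called genes, a black bar for the median of the list and a dashed line for the median of all tested genes (-0.06). The lbp family and the 6 lists each hold genes on both sides of 0, from lbp-6 at -2.68 to lbp-1 at 1.68 in the lbp family.

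Several tissue lists moved in the same direction as the members that fell. The summed intestine markers had 75033 to 98409 normalised reads at day 5 and 155928 to 239118 at day 1, and asp-1, an intestinal protease gene, was the highest of that list. Those of body wall muscle, led by the myosin gene unc-54, had 46597 to 91938 at day 5 and 226482 to 320494 at day 1. Those of the hypodermis, of which the cuticle gene dpy-5 was the highest over all 8 libraries and at day 1, had 7589 to 20323 at day 5 and 88213 to 184045 at day 1. In the other direction, and so that of lbp-1, lbp-2 and lbp-9, the summed germline and oocyte markers had 76982 to 113474 at day 5 and 17844 to 29090.2 at day 1; puf-5 was the highest of them over all 8 libraries and at day 5, and glh-1 at day 1. The summed neuron markers had 7445 to 9480.5 at day 5 and 8329.5 to 11009 at day 1, with overlap, and snb-1, the highest of them, rose while most of the list fell. The summed pharynx markers, led by the myosin gene myo-2, had 2413 to 3720 at day 5 and 4499 to 24381 at day 1, and those of the coelomocytes, led by cup-4, had 182 to 310.2 at day 5 and 312 to 917 at day 1. The moult genes, of which noah-1 was the highest over all 8 libraries, summed to 2832 to 7772 at day 5 and 16423 to 63951 at day 1, while the sperm markers, led by gsp-3, summed to 289 to 1020.0 at day 5 and 138 to 2859 at day 1. vit-6 led the yolk genes. The part of these tissues in the differences of the lbp genes was not tested.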

How the data were processed

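Poly(A) RNA of whole N2 hermaphrodites was measured in 8 libraries, 4 per age. HISAT2 and HTSeq were used with build WBcel235, per the submitters' processing notes; their versions and settings were not given in the sources used here. Although its name says FPKM, the deposited table holds a signal with no length correction: in every library 100% of values were whole multiples of a step (0.886 to 1.12) within 0.001 reads, which gave back whole reads. These reads set the precision at low levels, and PCR duplicates cannot be recognised.

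Genes with a mean of at least 1 were tested with limma 3.58.1 (R 4.3.3) on log2(value + 1) with a variance trend and Benjamini-Hochberg adjustment over all tested genes. This test had been planned for FPKM values and was kept; edgeR 4.0.16 and DESeq2 1.42.0 on the recovered reads were alternatives. Each labelled batch holds 1 library per age, so batch numbers pair the libraries by label; deviations of same-batch libraries correlated at -0.22, 0.24, -0.09 and -0.02 across genes. The block is an alternative. Between replicates, counts always differed by more than sampling noise.

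Exons and coordinates (1-based) came from annotation release 115 of WBcel235, which held 17072 of the IDs; a table of gene names held 16887. Named genes were all members, 9 genes of the LBP-3, LBP-8 and desaturase pathways, of each lipid list the 2 called genes with the largest non-overlapping differences, the highest gene of each marker list, and the 2 nearest profiles per member. Members and lists were chosen with earlier results of these data known. acbp-2 was not matched to an ID and is not reported. Protein and promoter sequences were not analysed here. Python 3.11.15 and matplotlib 3.10.9 made the plots.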

Additional observations from a re-analysis of the deposited data

Results flagged for a closer look

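Within the groups of 4 libraries, single libraries stood apart from the other 3 by Dixon's gap criterion in 8 of 78 groups, of which 2 were among the 18 groups of the lbp genes; chance alone flags about 1 group in 20. The day 5 library of batch 4 stood above the other day 5 libraries for lbp-3 (950.1 normalised reads, others 814 to 828) and for lbp-4 (893.4, others 604 to 653), both members without a call. The same library stood above the others for asp-1 (62996.5, others 48989 to 49664).

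The day 5 library of batch 2 stood apart for cpt-5 (361.4, others 150 to 183), and the day 1 library of batch 3 did so for the same gene (1535.6, others 567 to 617). The day 1 library of batch 1 stood apart for fat-6 (16498.9, others 6976 to 7587). For far-4 the day 5 library of batch 3 stood apart (168.3, others 19.6 to 40.5). The day 1 library of batch 3 was flagged too (3.302, others 2.86 to 2.92). Each day 1 library held 3 reads of far-4, so only the scaling by size factor set it apart.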

How the results depend on the processing

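lbp-1, lbp-5, lbp-6, lbp-7 and lbp-8 kept their direction and their call in all 29 alternatives, with log2 differences of 1.15 to 1.90, -2.71 to -1.47, -3.18 to -2.17, -2.76 to -1.57 and -2.66 to -1.46 in that order. lbp-9 ran over 0.82 to 1.32 and lost its call in the test against a 1.5-fold change (1.07, adjusted p = 0.0553), which left 1 member called higher. In that test 3383 of all tested genes were called higher, against 4820 in the main analysis. lbp-2 lost its call in that test (0.77, adjusted p = 0.402), when libraries were scaled without the 1% highest genes (0.52, adjusted p = 0.086) and with day 1 batches 1 and 2 left out (0.48). In the 12 settings without a single library or without 1 batch of both ages, lbp-2 ran over 0.62 to 0.93. It lost its call in 6 of these 12, among them those without batch 1 (0.74) and without batch 4 (0.65) of both ages. lbp-3 was called lower after quantile scaling (-1.06, adjusted p = 0.0112), with scaling without the 1% highest genes (-0.77, adjusted p = 0.0388) and with day 1 batches 1 and 2 left out (-1.04), and turned to 0.00104 with day 1 batches 3 and 4 left out. lbp-4 turned to 0.069 with library weights and to 0.25 with day 1 batches 3 and 4 left out, and was called lower with day 1 batches 1 and 2 left out (-1.05). In that last setting 2 members were called higher and 6 lower. Over all tested genes it called 5220 higher and 4750 lower, against 4820 and 4487 in the main analysis. The split was drawn from these same libraries, so the calls in that setting are descriptive.

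Outside the family, mdt-15 turned to -0.087 with library weights and to -0.25 with day 1 batches 3 and 4 left out. fat-6 ran over -0.28 to 0.13 with single libraries left out, and was 0.078 without batch 1 of both ages and 0.10 with day 1 batches 1 and 2 left out. gsp-3, a sperm gene with a main value of -0.077, ran over -0.81 to 0.73, and was 1.31 without batch 1 and 0.18 without batch 2 of both ages and 1.997 with day 1 batches 1 and 2 left out (adjusted p = 0.0215); it was -2.15 with day 1 batches 3 and 4 left out (adjusted p = 0.0198). The cause of these changes was not tested.

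Counts of calls in the lipid lists moved by more than 1.5 times in these settings. In the test against a 1.5-fold change, the partners had 1 gene higher (3 in the main analysis). There the FAR family had 1 higher and 1 lower (3 and 3). The synthesis and droplet genes had 3 higher and 1 lower (5 and 2). Over all tested genes that test called 3383 higher and 2839 lower, against 4820 and 4487 in the main analysis. The desaturase and oxidation genes had 5 lower (3) after fixed-sum, quantile or top-gene-free scaling, with library weights and without batch 3 of both ages. Over all tested genes these settings called 4794, 4328, 5337, 5007 and 4017 lower in that order, against 4487 in the main analysis. The synthesis and droplet genes had 3 higher (5) after quantile scaling, where 4113 of all tested genes were called higher (4820). Without batch 4 of both ages the partners had 1 higher (3) and the FAR family 1 lower (3). In that setting 3988 of all tested genes were called higher (4820) and 3259 lower (4487). Without batch 1 of both ages the acyl-CoA-binding genes had 2 higher (1), and 4416 of all tested genes were called higher. With day 1 batches 1 and 2 left out, the acyl-CoA-binding genes had 4 lower (2) and the other carriers 2 higher (1). There 5220 of all tested genes were called higher and 4750 lower. With day 1 batches 3 and 4 left out, the synthesis and droplet genes had 4 lower (2) and the other carriers 6 lower (3). There 4584 of all tested genes were called lower.

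With the replicate block no member gained or lost a call; lbp-2 had an adjusted p of 0.0147 and lbp-8 one of 0.0175. The median of all tested genes was -0.06, and -0.30 with scaling without the 1% highest genes, where 44.2% of calls were higher, against 51.8% in the main analysis. lbp-8 rests on 4 to 7 reads per library at day 5, which limits the precision of its difference.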
